A study of Mus musculus with 2 samples.

Results

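The S100 proteins are small calcium-binding proteins, and 10 S100 genes (S100a1, S100a3, S100a4, S100a6, S100a8, S100a9, S100a10, S100a11, S100a13 and S100b) were followed here in regulatory T (Treg) cells labelled wild-type and Nr4a-TKO. They were taken as the non-control probes whose gene name on the array was 1 of these symbols, which covered 12 of 55676 probes and 10 of 34960 gene names. Within them, S100a4, S100a6, S100a10, S100a11 and S100a13 were counted as effector-cell S100 genes and set beside S100a8 and S100a9, the S100 genes of granulocytes. Treg cells, the CD4 T cells that restrain immune responses, were sorted from wild-type mice and from Nr4a-TKO mice, all 5 weeks old, and lysed directly for RNA. The Nr4a family of nuclear receptors (Nr4a1, Nr4a2, Nr4a3) is induced by T cell receptor signals. What was deleted in each gene, in which cells, and the number and sex of the mice behind each sample are not given in the labels for Nr4a-TKO. Each genotype was measured on 1 one-colour Agilent array (2 arrays in all), so every value below is a difference between 2 arrays with no replicate check and no p-value.

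S100 proteins work mostly as dimers. Binding of calcium to their EF-hand loops opens a hydrophobic surface with which they hold target proteins such as annexins and myosin. S100A10 is the exception, since its loops have lost calcium binding and it holds annexin A2 without it. In T cells S100a4, S100a6, S100a10 and S100a11 are known as genes of effector and memory rather than naive cells, while S100A8 and S100A9 form calprotectin, the abundant cytosolic complex of neutrophils that acts on TLR4 and RAGE when released.

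Of the 12 member probes, 3 matched a codon pattern of the calcium-binding loop. They are shown because the results for S100a1, S100a6 and S100a8 come from them. Loops of another form, or cut further by the ends of a probe, would not match this pattern. The probe sequences were taken from the deposited scanner files, 5′ to 3′, on mm9. Capitals mark the bases that fit the codon pattern of a 12-residue loop (aspartate first, then aspartate, asparagine or serine at the next binding places, and glutamate last). In S100a1 and S100a8 the whole loop of 36 bases was present, and in S100a6 the probe began inside it and held 30 bases.
S100a1 probe, chr3:90315191-90315250, minus strand: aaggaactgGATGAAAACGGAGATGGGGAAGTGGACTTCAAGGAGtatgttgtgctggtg
S100a6 probe, chr3:90418160-90418219, plus strand: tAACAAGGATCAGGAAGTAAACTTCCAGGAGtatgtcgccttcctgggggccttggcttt
S100a8 probe, chr3:90473778-90473837, plus strand: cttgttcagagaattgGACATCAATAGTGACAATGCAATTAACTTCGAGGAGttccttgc
Although the proteins are related, the longest run of identical bases between the probes of any different members was 11 of 60 bases, between S100a6 and S100a4. Exon and UTR annotation of mm9 was not used here, so the other probes are given by position only.

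The scanner called 66.0% of probes well above background in wild-type and 63.9% in Nr4a-TKO. Among the 23493 gene names that passed this call on each array, 741 were higher in Nr4a-TKO by 2-fold or more and 720 were lower by as much, so that 50.7% of these calls were higher. This split moved to 26.4% with spike-in controls as the centre and to 38.4% with housekeeping genes. Of the targeted genes, Nr4a3 was 7.04-fold lower in Nr4a-TKO (3.26-fold with normexp background correction), Nr4a2 was 2.54-fold higher, and Nr4a1 differed by 0.060 on the log2 scale with a sign that turned in 4 of 11 other settings. Whether the Nr4a1 and Nr4a2 probes lie inside a deleted part is not given, and Nr4a-TKO stands below for the array so labelled. Foxp3, which defines Treg cells, was 17.2-fold lower (10.3-fold with normexp) yet still well above background on both arrays. The other Treg and T cell markers were so too, and all were lower in Nr4a-TKO, Ikzf2 by 3.07-fold, Ctla4 by 2.29-fold and Cd4, Il2ra and Cd3e by 1.43-fold, 1.31-fold and 1.28-fold (median of the 6 with Foxp3 -0.86). All 7 probes named Xist or XIST, the RNA that silences an X chromosome in female cells, were brighter on the Nr4a-TKO array (highest signal 53.0 in wild-type and 23563 in Nr4a-TKO), and the Y-linked genes Ddx3y, Eif2s3y, Kdm5d and Uty were lower there. The part of these gaps in the S100 values was not tested, and genotype cannot be told apart from sex or from preparation with 1 array each.

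Signals are the scanner's processed intensities, which were corrected within each array and not between arrays, and each member probe had 1 spot per array. The ± value is the error that the scanner's error model gives to that spot, so it covers the spot and not the mice. Differences are given on the log2 scale as Nr4a-TKO minus wild-type after each array was set to its 75th percentile (831 in wild-type and 752 in Nr4a-TKO), which raises Nr4a-TKO signals by 1.10-fold relative to wild-type. The SD with a difference joins the error models of both spots. As a second gauge, 262 probes were used that had at least 5 usable spots and were well above background on both arrays. They gave a spot SD of 0.0795 for a difference, and probes that lacked the call did not enter it.

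Of the 10 members, 7 were well above background on both arrays and 3 (S100a8, S100a9 and S100b) on the wild-type array only. Among these 7, S100a3 and S100a6 were at least 2-fold higher in Nr4a-TKO and 0 were at least 2-fold lower. Across all gene names 3.15% were higher by 2-fold or more and 3.06% lower, or 6.22% in either direction. The 3 of 10 members above background in wild-type alone compare with 5.95% of the names above background on either array. The median difference of the 7 was 0.080, beside 0.079 for all gene names.

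**Figure D1:**
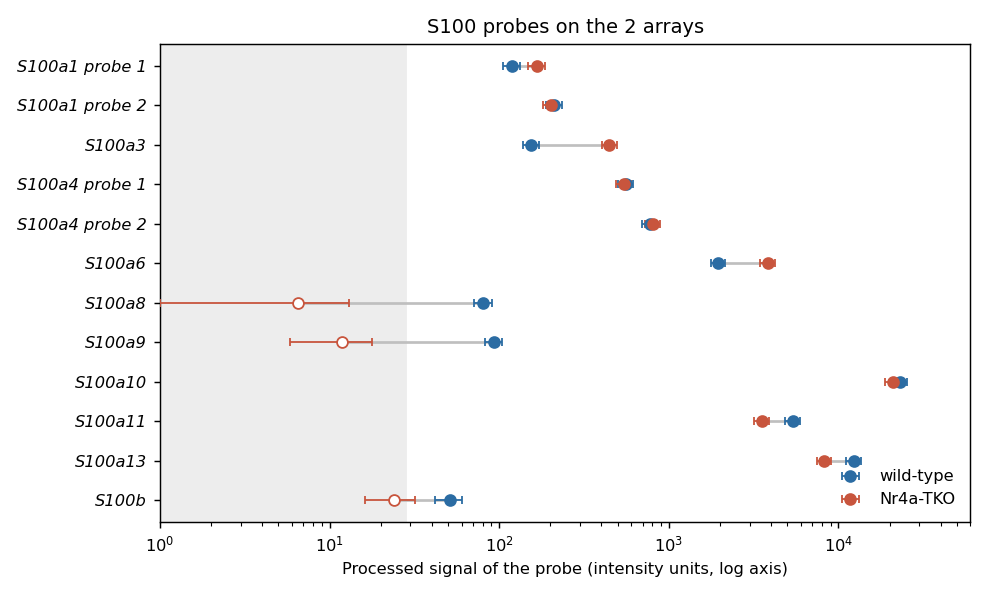
Processed signal (intensity units, log axis) of each of the 12 S100 probes on the wild-type array (blue) and the Nr4a-TKO array (red), 1 spot each, with bars for the scanner's error model. Open circles were not well above background, and the grey band lies under 28.1, the lowest signal called well above background on the wild-type array. The S100a3 and S100a6 points separate to the right in Nr4a-TKO, the S100a8 and S100a9 points lie in the grey band there, and the S100a4 and S100a10 points overlap.

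The effector-cell S100 genes differed in both directions. S100a6, which encodes calcyclin, was the 1 gene of the 5 past 2-fold. Its signal was 1959 ± 196 in wild-type and 3856 ± 386 in Nr4a-TKO, a difference of 1.12 (SD 0.204), or 2.17-fold. The Nr4a-TKO spot was the brighter by several times its model error, and 2.53% of all gene names were higher by as much. S100a6 stayed higher in all 11 other settings, at 0.85 to 1.12, and dropped under 2-fold in 2 of them (1.80-fold with spike-ins and 1.98-fold with housekeeping genes as the centre). Since it has 1 probe, probe averaging and both filter settings return its main value by construction.

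S100a4, known as metastasin and a binder of nonmuscle myosin, lies near S100a6 on the chromosome and showed no such difference. Its brighter probe, at chr3:90409908-90409967, read 776 ± 77.9 in wild-type and 808 ± 81.1 in Nr4a-TKO, which gave 0.20 (SD 0.205). The second probe, at chr3:90409734-90409793, read 558 ± 56.3 and 545 ± 55.0 and gave 0.11 (SD 0.206). Both probes thus differed by no more than the error of their spots, and the sign of the brighter turned with spike-ins as the centre (-0.073).

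S100a10, the light chain that tethers annexin A2 at the membrane, read 22944 ± 2294 in wild-type and 20988 ± 2099 in Nr4a-TKO at chr3:93368437-93368496. After scaling the difference was 0.015 (SD 0.204), with a sign that turned in 6 of 11 other settings, down to -0.26. The value in the main setting was within the spot error, while the value with spike-ins as the centre was beyond it, so no direction is given for S100a10.

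S100a11 and S100a13 were the lower members of this group. S100a11, a partner of annexin A1, read 5379 ± 538 in wild-type and 3521 ± 352 in Nr4a-TKO at chr3:93330022-93330081, a difference of -0.47 (SD 0.204), or 1.38-fold lower. S100a13, which takes part in the unconventional export of FGF1 and interleukin-1 alpha, read 12365 ± 1236 and 8264 ± 826 at chr3:90328442-90328501, a difference of -0.44 (SD 0.204), or 1.35-fold lower. Each was lower in all 11 other settings, between -0.74 and -0.44 for S100a11 and between -0.71 and -0.44 for S100a13, and neither passed 2-fold in any. As for S100a6, some of these settings return the main value by construction. Differences of this size were not rare, since 10.1% of all gene names were as low as S100a11 and 11.1% as low as S100a13. The 5 effector-cell genes had a median of 0.015, with 3 above and 2 below 0, and a range of -0.47 to 1.12.

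The granulocyte genes were well above background in wild-type only, so their differences have a lower bound and no order among them. S100a8 read 80.8 ± 10.2 in wild-type and 6.48 ± 6.52 in Nr4a-TKO, where the scanner replaced the spot by its surrogate for signals that cannot be told from background. S100a9, at chr3:90496573-90496632, read 93.3 ± 10.9 in wild-type and 11.8 ± 5.93 in Nr4a-TKO. Both were dim even in wild-type, and both left the range that the scanner calls well above background in Nr4a-TKO.

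Since a dim spot gives only a limit, the wild-type value was set against the lowest signal called well above background on the Nr4a-TKO array (29.3). A spot that lacked the call but was brighter than this was taken at its own signal. On that footing S100a8 was at least 2.50-fold and S100a9 at least 2.89-fold lower, where 0.874% of the names above background on either array were at least 2-fold lower by this bound. Under 7 other scalings the bounds ran from 2.50-fold to 3.02-fold for S100a8 and from 2.89-fold to 3.49-fold for S100a9. With normexp correction, whose offset of 50 shrinks differences between dim spots, the bounds were 1.5-fold and 1.72-fold, so that a 2-fold size is not shown in that setting.

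The uncorrected pixels show the same spots without either correction. For S100a8 the mean pixel signal was 173 in wild-type, above all 299 usable negative control spots (highest 93.3), and 90.8 in Nr4a-TKO, where 1 of 301 negative controls was as bright. For S100a9 it was 199.8 in wild-type and 98.7 in Nr4a-TKO, where the brightest negative control read 90.8. The S100a8 spot in Nr4a-TKO therefore sat at the level of the brightest negative control, and the S100a9 spot just over it. In bulk RNA, fewer cells of a type and less RNA per cell cannot be told apart.

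Markers of granulocytes were measured beside them. Of 16 such genes, chosen without S100a8 and S100a9, 9 were well above background on both arrays, 2 on the wild-type array only, 1 on the Nr4a-TKO array only and 4 on neither. Mpo, the granule myeloperoxidase, was 7.76-fold lower in Nr4a-TKO (276 and 32.3, or 3.04-fold with normexp). Ctsg, the granule protease cathepsin G, was 5.88-fold lower (297 and 45.8, or 2.70-fold with normexp).

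The other granulocyte markers differed in both directions. Elane, neutrophil elastase, differed by -0.068 (817 and 705). Ly6g, the neutrophil surface antigen, was 6.72-fold higher in Nr4a-TKO (251 and 1525), and Camp, Lcn2 and Cxcr2 differed by 0.13, 0.11 and 0.32. Whether the Ly6g probe also reads other Ly6 genes was not tested. Ngp and Csf3r differed by -0.21 and -0.32. Csf3r was far brighter (141975 and 103043) than the other markers of this list, and whether its probe reads other RNA was not tested. Retnlg (43.4 and 24.6) and Cebpe (45.6 and 36.3) were well above background in wild-type only, as S100a8 and S100a9 were. Retnlg was at least 1.34-fold lower. Cebpe differed by -0.19 and has no bound, since its Nr4a-TKO spot lacked the call yet lay above 29.3. Prtn3 was well above background in Nr4a-TKO only (31.0 and 38.4). It differed by 0.45 and likewise has no bound, since its wild-type spot lay above 28.1, the lowest signal so called there. Ltf, Mmp8, Mmp9 and Fcnb were well above background on neither array. The list's summed signal was 144148 in wild-type and 105864 in Nr4a-TKO, and without Csf3r it was 2173 and 2822. This direction rested on Ly6g, since without both genes the sum was 1922 in wild-type and 1297 in Nr4a-TKO. The sums that leave out genes were taken after their values were seen. The median of the 9 was -0.068, with 1 past 2-fold upward and 2 past it downward, beside 3.15% and 3.06% of all gene names.

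Among monocyte and macrophage markers, Lyz2, the myeloid lysozyme, was likewise well above background in wild-type only, with 50.4 in wild-type and 13.1 in Nr4a-TKO (at least 1.56-fold lower). The other markers of this list on both arrays ranged from -0.099 to 0.56, and Cd14 was well above background on neither. The median of the 5 was -0.016, and the list's summed signal was 11430.1 in wild-type and 10196 in Nr4a-TKO. Most of this sum was Itgam (9708 and 8209, a difference of -0.099 after scaling). Like the granulocyte sums, it was taken before the arrays were scaled. Of dendritic cell markers 3 of 5 were measured on both arrays, with a median of 0.12. Siglech among them was very bright (115273 and 102417), with 1 of its 3 probes well above background on both arrays. Whether that probe reads other RNA was not tested. Of CD8 and NK cell markers 4 of 5 were measured, with a median of -0.41. Of B cell markers 3 of 5 were measured, with Cd79b 2.51-fold higher and Ms4a1 well above background on neither array. Of epithelial and stromal markers 3 of 6 were measured, with a median of -0.084. Krt18 was 2.43-fold higher (133 and 292, or 1.91-fold with normexp), and 3.15% of all gene names were higher by 2-fold or more. Epcam and Krt5 differed by -0.18 and -0.084. Of erythroid and platelet markers 0 of the 5 with a probe were measured on both arrays. The part of any of these cells in the S100a8 and S100a9 values was not tested.

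S100a3, best known as a cysteine-rich protein of the hair cuticle, had the highest difference of the 7 members above background on both arrays. Its probe at chr3:90406396-90406455 read 155 ± 16.9 in wild-type and 447 ± 45.2 in Nr4a-TKO. The difference was 1.67 (SD 0.215), or 3.18-fold, and 1.09% of all gene names were higher by as much. It stayed past 2-fold in all 11 other settings, from 2.40-fold with normexp to 3.21-fold with quantile normalization. Some of these settings return its main value by construction, as for S100a6. The signal is low and rests on 1 spot per array.

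S100a1, a regulator of calcium handling in heart muscle, was read by probes that did not give the same size. The brighter, the loop probe shown above, read 211 ± 22.1 in wild-type and 202 ± 21.3 in Nr4a-TKO and gave 0.080 (SD 0.215). The other, at chr3:90314959-90315018, read 119 ± 14 and 167 ± 18.1 and gave 0.63 (SD 0.231). Their mean was 0.36, and the sign of the brighter turned in 2 of 11 other settings.

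S100b, the glial S100 protein and the 1 member off chromosome 3, read 51.1 ± 9.14 in wild-type and 24.0 ± 7.90 in Nr4a-TKO at chr10:75723783-75723842. It was well above background in wild-type only and at least 1.58-fold lower, or 1.09-fold with normexp. Of the glial markers, Sox10 differed by -0.13 and Gfap by 0.57.

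Position was then set beside the differences, because 9 of the 10 members lie on chromosome 3. In the order of their mm9 probes, S100a3, S100a4, S100a5 and S100a6 follow each other at 91.4, 94.8, 100.7 and 103.2 kb from the first S100a1 probe, and S100a8 and S100a9 at 158.8 and 181.6 kb. Differences did not follow this order. The S100a4 and S100a5 probes, at 0.11 to 0.20, stood between the high values of S100a3 and S100a6, while S100a8 and S100a9, farther along, were lower. S100a11 and S100a10 lie more than 3015 kb from the first probe and are neighbours of each other, with -0.47 and 0.015.

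**Figure D2:**
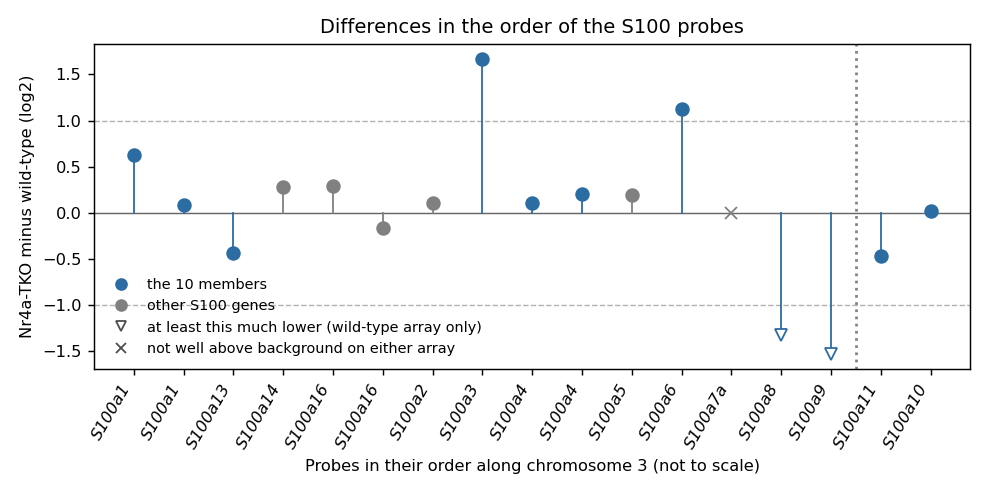
Difference between the arrays (Nr4a-TKO minus wild-type, log2) for each S100 probe on chromosome 3, in chromosomal order and not to scale, with members in blue and other S100 genes in grey. Open triangles are lower bounds for spots well above background on the wild-type array only, a cross marks S100a7a with no signal well above background, dashed lines mark 2-fold, and the dotted line marks the gap before S100a11. S100a3 and S100a6 rise past 2-fold on either side of S100a4 and S100a5, and S100a8 and S100a9 point down.

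Promoter sequence was examined for members that stood apart. Windows of 250 bases before each gene's start came from RefSeq (GRCm38.p6), which held 12 windows for 9 of the 10 members. S100a10 was not in that table. NBRE, the element that Nr4a receptors bind as monomers (AAAGGTCA, either strand), was in 0 of the 12 windows and in 1.34% of 32851 windows of all genes. TATAAA, on either strand, was in 3 windows, of S100a3, S100a4 and S100a8, beside 12.4% of all windows, and the AP-1 site TGANTCA in 1, of S100a11, beside 6.75%. No member window held more than 1 of these motifs. No match says only that these letters are absent from the window. The windows of S100a8 and S100a9, the pair lower by bound, and of S100a6, which was higher, are shown 5′ to 3′ in the direction of the gene, with TATAAA in capitals.
S100a6, chr3:90612644-90612893, plus strand: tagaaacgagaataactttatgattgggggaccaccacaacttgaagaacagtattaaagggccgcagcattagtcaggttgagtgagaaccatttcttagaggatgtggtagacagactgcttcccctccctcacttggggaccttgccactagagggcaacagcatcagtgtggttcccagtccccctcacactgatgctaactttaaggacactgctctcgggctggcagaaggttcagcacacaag
S100a8, chr3:90668821-90669070, plus strand: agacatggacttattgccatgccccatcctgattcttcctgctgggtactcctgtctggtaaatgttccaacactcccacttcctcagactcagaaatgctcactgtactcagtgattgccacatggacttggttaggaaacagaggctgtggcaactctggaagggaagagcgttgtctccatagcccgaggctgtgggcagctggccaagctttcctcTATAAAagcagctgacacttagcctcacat
S100a9, chr3:90695722-90695971, minus strand: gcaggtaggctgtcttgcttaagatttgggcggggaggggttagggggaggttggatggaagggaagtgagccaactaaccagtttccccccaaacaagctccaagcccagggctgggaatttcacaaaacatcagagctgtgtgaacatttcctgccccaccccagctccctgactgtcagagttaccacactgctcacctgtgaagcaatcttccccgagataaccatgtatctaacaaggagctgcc
In S100a8 the TATAAA began 30 bases before the start, and in S100a4 it began 31 bases before. The S100a6 and S100a9 windows held none of the 3 motifs. S100a1 and S100a13 are read from opposite strands, and their windows share 104 of 250 bases, while their differences were 0.080 and -0.44.

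Of 8 other S100 genes on the array (S100pbp, which encodes an S100P-binding protein, among them), 5 were well above background on both arrays. At the brightest probe 0 of these 5 were past 2-fold, beside 6.22% of all gene names. S100a16 differed by 0.29 at its brighter probe (4028 and 4448) and by -0.16 at a dim second probe. S100a2, S100a5 and S100a14 differed by 0.11, 0.19 and 0.28. Of these 3, S100a2 and S100a5 turned sign with spike-ins as the centre.

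S100a7a and S100z were well above background on neither array. S100g, the X-linked intestinal calcium carrier calbindin-D9k, was well above background in Nr4a-TKO only at 1 of its probes (6.36 and 56.2, at least 2.21-fold higher) and on neither array at the other. S100pbp differed by 0.064 at its brightest probe (2274 and 2153), by -0.50 at a second and by -2.06 at another (1219.6 and 264), which the array ties to a cDNA clone, so its probes did not give 1 direction.

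The partners that S100 proteins bind came from a list of 20 genes, of which 16 were well above background on both arrays. Of these, 1 was higher by 2-fold or more and 0 were lower by as much, beside 3.15% and 3.06% of all gene names. Their median was 0.13, which turned to -0.15 with spike-ins and to -0.0094 with housekeeping genes as the centre. Ahnak, a giant scaffold held by the S100A10 and annexin A2 complex, was the gene past 2-fold, at 4.83-fold higher (2428 and 10619). Its 4 probes ranged from 0.37 to 2.27, and their mean was 1.69.

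Annexins differed among themselves. Anxa2, the partner of S100A10, read 38167 in wild-type and 64375 in Nr4a-TKO, a difference of 0.90 that stayed above 0 in all 11 other settings (lowest 0.62). S100a10 itself differed by 0.015. Anxa6, a binder of S100A6 and S100A1 among others, was lower by 1.45-fold (63874 and 39940.0), and Anxa1, Anxa5 and Anxa11 differed by 0.16, -0.046 and 0.035.

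Partners of S100A6 and S100A4 were measured as well. Cacybp, the calcyclin-binding protein gene, differed by 0.31, and Sugt1, which S100A6 also binds, by 0.23, a sign that turned with spike-ins. Myh9, the nonmuscle myosin heavy chain bound by S100A4, differed by -0.48 at one probe and -0.58 at the other, and Ppfibp1, liprin beta 1, another S100A4 partner, by 0.84.

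Of the receptors for released S100 proteins, Ager, which encodes RAGE, was dim and 1.40-fold lower (143 and 92.4, or 1.21-fold with normexp), Tlr4 was well above background on neither array, and Bsg, which S100A9 binds, was 1.55-fold higher (11569.9 and 16221). Of the cargo that S100A13 helps to export, Fgf1 differed by 0.099 and Il1a was well above background on neither array.

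To place S100a6 among genes of effector and memory T cells, a list of 30 such genes was read, which shares Ahnak, Anxa1 and Anxa2 with the partner list. Of these, 26 were well above background on both arrays, 7 were higher by 2-fold or more and 1 lower, beside 3.15% and 3.06% of all gene names. The median was 0.51, and it ranged from 0.24 with spike-ins to 0.51 over the settings that kept the filter on dim probes.

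The higher genes were Cxcr3, a chemokine receptor (7.20-fold), Ly6c1 (5.82-fold at its brighter probe, 0.015 on the log2 scale at the other), Ahnak, the transcriptional regulator Id2 (3.25-fold), Myo1f (2.51-fold), Batf (2.49-fold) and Rora (2.36-fold, under 2-fold with spike-ins). Gzmb, granzyme B, was the lower gene at 5.61-fold (4.17-fold with normexp). Among genes often seen with S100a4, S100a6 and S100a10, Lgals1 differed by 0.77, Vim by 0.46 and Itgb1 by 0.73. Crip1, Prdm1 and Emp3 were lower, at -0.95, -0.72 and -0.51, as were S100a11 and S100a13. Prdm1 was dim (118 and 65.3) and differed by -0.28 with normexp. Crip1 passed 2-fold in 5 of 11 other settings, which makes 2 lower genes there. Effector genes, S100 members included, thus differed in both directions on these arrays.

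**Figure D3:**
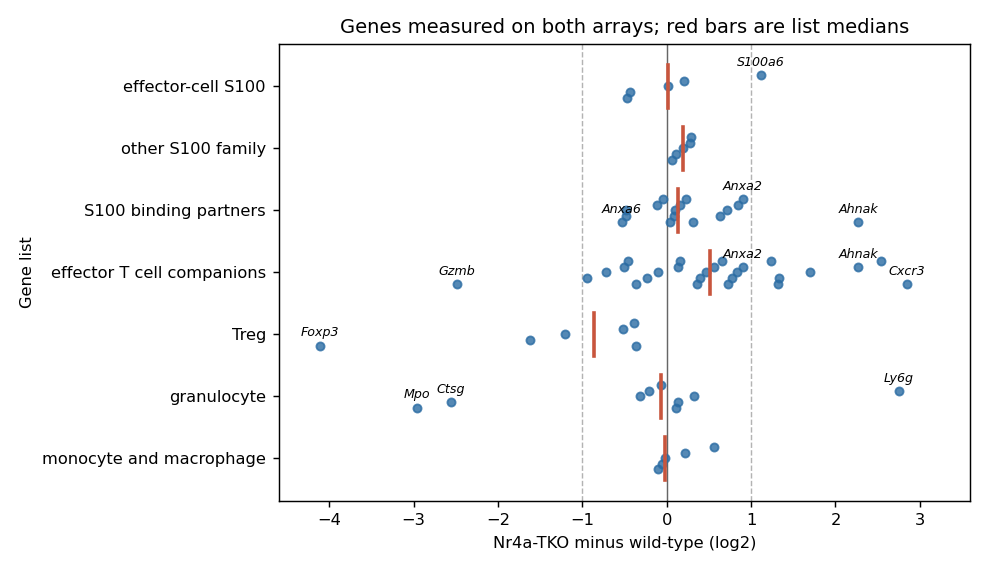
Difference between the arrays (Nr4a-TKO minus wild-type, log2) of genes well above background on both arrays, by gene list, with each point a gene at its brightest probe, red bars at the list medians and dashed lines at 2-fold. Vertical offsets within a list only separate points. The effector-cell S100 genes centre on 0.015 with S100a6 apart at 1.12, the effector T cell companions centre on 0.51, and the granulocyte markers spread from -2.96 for Mpo to 2.75 for Ly6g.

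Scaling set the sign of the small differences and not of the larger ones. The median of all gene names shifted by -0.27 with spike-ins and by -0.14 with housekeeping genes as the centre, and by less than 0.1 with each other scaling run. S100a3, S100a6, S100a11 and S100a13 kept their sign in all 11 other settings, and S100a1, S100a4 and S100a10 did not.

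**Figure D4:**
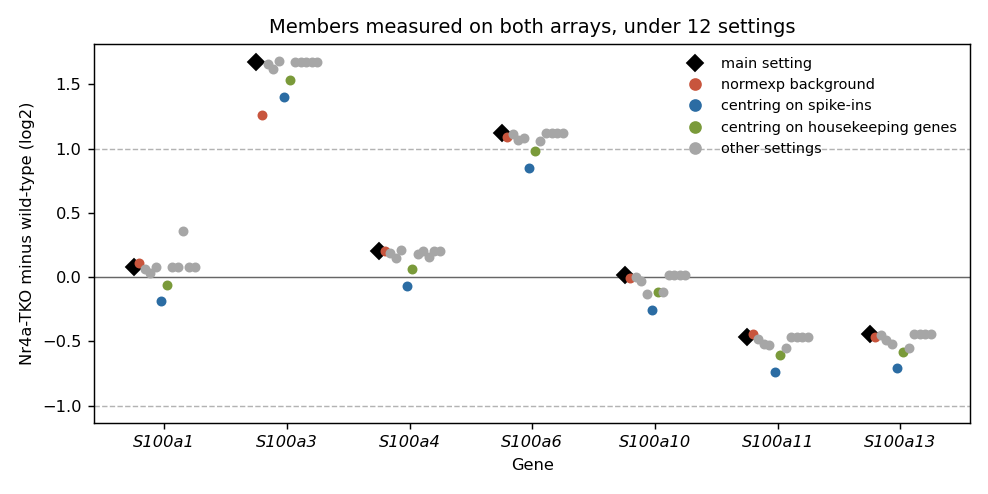
Difference between the arrays (Nr4a-TKO minus wild-type, log2) of the 7 members well above background on both arrays under the main setting (black diamond) and 11 others, with dashed lines at 2-fold and a solid line at 0. S100a3 lies between 1.26 and 1.68 and S100a6 between 0.85 and 1.12, while S100a10 lies between -0.26 and 0.015.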

How the data were processed

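Total RNA of sorted Treg cells was labelled with Cy3 and hybridised to 1 array per genotype, per the labels' protocols. The authors deposited each spot's intensity as written by Feature Extraction 10.10.1.1 (Agilent; mm9 design, detrending and surrogates on, per the file headers), and a table of log2 values. Those log2 values equalled the log2 processed signal less a constant per array (SD 2.9e-04); no source used here gives how it was set.

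Control spots (3671) and spots with outlier flags (156 and 117) were left out. Spots of a probe were averaged as log2 signals, and each array's 75th percentile was subtracted. Names came through RefSeq transcripts (GRCm38.p6) for 27508 of 55676 probes, otherwise from the file. The brightest probe, by its mean over both arrays, stood for a gene. The array number limits the precision. Members and lists were chosen with earlier results of these data known. The naming rule took all members and their named lists, partners, marker genes and companions past 2-fold or the 3 largest either way; Vim, Itgb1, Lgals1 and Emp3 were added after their values were seen. Alternatives covered background, scaling, probe choice, filter and threshold. The counting step was tested on simulated data. Python 3.11.15, R 4.3.3 and limma 3.58.1 were used. Some marker genes are not reported here.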

Additional observations from a re-analysis of the deposited data

How the results depend on the processing

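The 2 members at least 2-fold higher became 1 with spike-ins or with housekeeping genes as the centre, where S100a6 came under 2-fold, and 1 at a 3-fold threshold. The 0 members at least 2-fold lower became 2 without the filter on dim probes, S100a8 and S100a9. The effector-cell median of 0.015 moved to -0.26 with spike-ins, -0.12 with housekeeping genes, -0.13 with quantile normalization and -0.12 with loess (span 0.3), and by less than the spot SD in the other 7 settings. Over all gene names the main counts were 741 higher and 720 lower. Normexp gave 478 higher and 457 lower, and spike-ins 449 higher and 1250 lower. Dropping the filter gave 1988 higher and 1834 lower, a 1.5-fold threshold 1965 higher and 1728 lower, and a 3-fold threshold 288 higher and 283 lower. The filter, threshold and centring counts move by construction, and for the others the cause was not tested. No member past 2-fold changed sign in any setting run. No paired analysis was possible because each genotype had 1 array and the labels carry no replicate number; no array could be left out. For S100a8, S100a9 and S100b the signal over background sets the limit: their Nr4a-TKO spots allow a bound only.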
